A study of Mus musculus with 12 samples.

Results

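The measurements described here come from 7754 array probes whose target transcripts carry an AK accession. They were taken from 37246 probes that are no control, by one rule: the transcript identifier in the scanner files is AK followed by digits. Each of the 7754 accessions had 1 probe. The source is C2C12, an immortalised mouse myoblast line that withdraws from the cell cycle and fuses into multinucleate myotubes once serum is lowered. Proliferating cells were grown in DMEM with 10% fetal bovine serum to 80 to 90% confluence. The other groups were then held in DMEM with 2% horse serum for 2, 5 or 8 days. Each of the 4 groups has 3 arrays from 3 experiments called independent in the labels, 12 arrays in all. Whether the stages of one experiment came from one culture is not stated, so the p-values reflect only array-to-array spread, and C2C12 is a single line. Total RNA (1 µg per sample) was amplified, labelled with Cy3 and hybridised to 1-colour Agilent arrays.

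AK numbers are database accessions given mainly to full-length cDNA clones of the RIKEN mouse collection, which were drawn from many tissues and developmental stages. Such clones include spliced and unspliced transcripts without a clear reading frame, alternative forms of coding genes and transcripts that lie within or against other genes. Long non-coding RNAs of this kind can act at chromatin, as scaffolds of nuclear bodies or by binding proteins and small RNAs, and some are needed for myoblasts to differentiate. The files do not show that each AK transcript is non-coding. RefSeq's gene list for the mouse (GRCm38.p6) holds 10 AK numbers among its synonyms, and 0 of them are on the array, so the transcripts are named by accession alone and their positions and sequences are not given here.

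The cultures showed their labelled cell type in mRNA probes. Of 10 muscle markers, all were well above background on every day 8 array, and 6 rose by day 8 while Myf5, a myogenic determination factor, fell. The 8 cell cycle markers all fell by day 8. Myog, the transcription factor that starts terminal differentiation, had normalised signals of 682 to 1036 in proliferation, 133369 to 162388 at day 5 and 47567 to 61351 at day 8. Adgre1, Adipoq and Plin1, defining markers of macrophages and adipocytes, were well above background on 0 of 12 arrays. Other lineage markers were measured: 2 of 4 macrophage markers (Csf1r and Aif1) and 1 of 4 endothelial markers (Tek) rose by day 8. The endothelial markers Cdh5 and Kdr, the adipocyte regulator Pparg and the osteoblast marker Bglap fell, and of the neural markers Map2 rose and Tubb3 fell. The summed signal of the macrophage list went from 148 in proliferation to 306 at day 8, against 226000 and 704000 for the muscle list. The part of other cell types in the AK results was not tested. In RNA from whole cultures, a change in the share of cells that hold a transcript and a change in its amount per cell cannot be told apart.

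Most AK transcripts gave weak or no signal in these cells. The scanner software marks a spot as well above background when its signal clearly exceeds that of its surroundings. By this mark 2489 AK probes (32.1%) were well above background on all 12 arrays, 2299 (29.6%) on none, and the rest on some. Among mRNA probes the shares were 63.2% and 13.9%, and among probes of UCSC known-gene transcripts 39.2% and 25.2%. By stage, 2764 AK probes were well above background on all 3 arrays in proliferation, 3037 at day 2, 2899 at day 5 and 3091 at day 8.

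The share detected also moved with the slide on which arrays were hybridised. Slide 1 held the 3 proliferation arrays and day 2 array 1, slide 2 held day 2 arrays 2 and 3 and day 5 arrays 1 and 2, and slide 3 held the remaining 4 arrays. AK detection was 41.3%, 41.5% and 49.5% on the proliferation arrays and 41.4% on the day 2 array beside them. On slide 2 it was 53.9% and 50.6% for day 2 and 56.1% and 54.9% for day 5. On slide 3 it was 37.8% for day 5 array 3 and 43.8%, 47.5% and 43.7% for day 8. The day 2 array on slide 1 was thus below both day 2 arrays on slide 2, and the day 5 array on slide 3 below both day 5 arrays on slide 2. The median signal of negative probes was 6.25 and 5.39 on proliferation arrays 1 and 2 and between 1.39 and 3.53 on the other 10 arrays. The part of these differences in falls of dim probes was not tested.

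**Figure D1:**
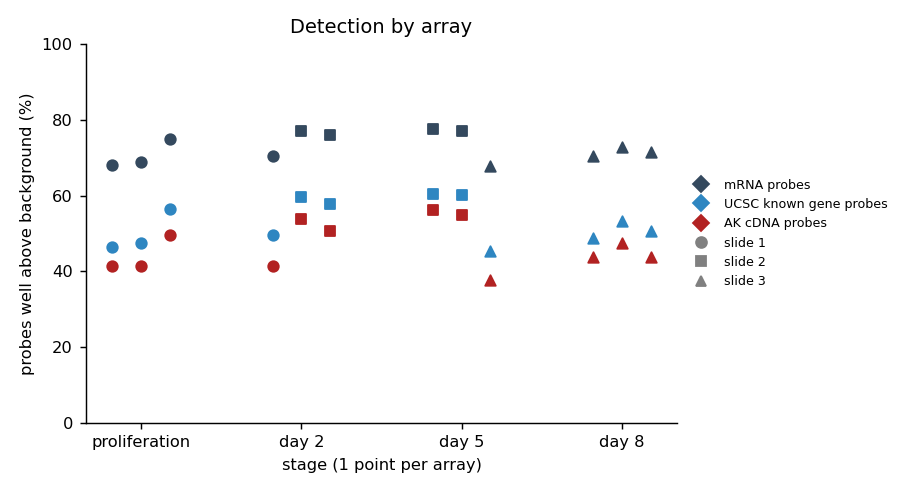
Share of probes marked well above background (%, vertical axis) on each of the 12 arrays by stage, for mRNA, UCSC known-gene and AK cDNA probes, with the slide as the symbol shape. AK probes lie below both other classes on every array, and the slide 2 arrays, at 50.6% to 56.1%, are higher than the slide 1 and slide 3 arrays.

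Some AK probes went from well above background on no array of a stage to all 3 arrays of another. 79 (1.02%) did so between proliferation and day 8, and 23 (0.297%) showed the opposite, beside 226 (1%) and 94 (0.417%) of mRNA probes. At day 2 the counts were 32 (0.413%) and 7 (0.0903%), beside 0.324% and 0.0577% of mRNA probes. At day 5 they were 53 (0.684%) and 5 (0.0645%), beside 0.737% and 0.204%. Of 7754 AK probes, 5 were well above background on no proliferation array and on all 9 later arrays. Another 2 were detected on all proliferation arrays and on no later one. These counts were 33 and 7 among 22522 mRNA probes.

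For the tests, a probe had to be well above background in at least 1 stage on each of its 3 arrays, which 3433 AK probes (44.3%) passed. The log2 signals were set relative to each array's 75th percentile and fitted with limma over all 22960 probes that passed, and a change was called at a Benjamini-Hochberg adjusted p under 0.05. Across the 4 stages 1949 of the 3433 AK probes (56.8%) changed in limma's F test, against 65.8% of all tested probes. The slide block left 900 AK probes (26.2%, against 31.6% of all probes). In that fit every change against proliferation runs through day 2 array 1, the only later array on slide 1. Changes to day 8 run through day 5 array 3, the only day 5 array on slide 3. Blocked changes and splits thus depend on single arrays, and why a call was lost with the block was not tested. Arrays of the same stage correlated at 0.97 to 0.988 over the tested AK probes, and arrays of different stages at 0.915 to 0.972.

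**Figure D2:**
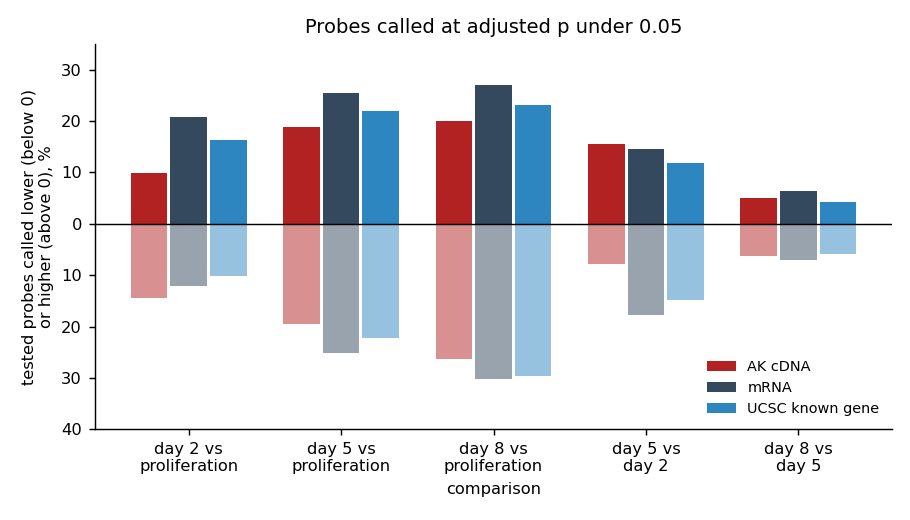
Share of tested probes called higher (above 0) or lower (below 0) at adjusted p under 0.05 in each of 5 comparisons, for AK cDNA, mRNA and UCSC known-gene probes. At day 2 against proliferation AK probes were more often lower (14.4%) than higher (9.96%), and at day 5 against day 2 more often higher (15.6%) than lower (7.86%).

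Day 2 against proliferation asked which AK transcripts changed first after serum was lowered. 836 AK probes changed, 342 higher and 494 lower, which is 24.4% of those tested against 30.6% of all probes. Calls in the higher direction made up 9.96% of AK probes against 18.3% of all probes, and those in the lower direction 14.4% against 12.3%. Of the AK calls 40.9% were rises, against 63.1% among mRNA probes and 61.9% among UCSC known-gene probes. Rises and falls of at least 2-fold numbered 121 and 243 among AK probes and came to 5.95% and 4.93% of all probes. The median AK change was -0.10 on the log2 scale, against 0.07 for all tested probes. With the slide as a block 426 AK probes changed, 12.4% of those tested against 15.5% of all probes, and 47.4% of them were higher against 63% of all calls. Both fits called 359 of them, and the AK median was -0.19. With this layout of slides the blocked day 2 change is the difference between arrays of slide 1, so that difference is no second result. The share of rises among AK calls moved with the processing together with that of all probes. With normexp, which here took the median spot signals and added an offset of 50, 73.1% were rises, beside 73.5% for all probes. When non-uniform spots were left out, 91.7% were rises, beside 96.4%. With the percentile then taken from all spots the shares were 44.5% and 68.3%. The AK share lay below that of all probes in each of the 23 settings run, with a difference of -23.8 to -0.4 percentage points.

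Sizes of named changes moved with normexp: of 73 called changes of named AK probes, 51 moved by over 1.5 times in fold. Among the rises, AK046545 and AK010243 gave the largest log2 changes for probes above background on all 6 arrays. AK046545 had normalised signals (in scanner units, scaled so that arrays share one 75th percentile) of 110, 92.6 and 91.5 in proliferation and 481, 636 and 497 at day 2. It rose by 2.45 ± 0.18 on the log2 scale (limma adjusted p = 2.02e-05, with ± giving the SE and 3 arrays in each stage), and later arrays read 580 to 1158. AK010243 rose from 28.3, 37.7 and 32.2 to 173, 185 and 157 (2.40 ± 0.16, limma adjusted p = 1.11e-05). Its later signals of 91.1 to 145 were below the day 2 values on all 6 arrays. With the slide as a block its change against proliferation was 2.41 at day 2 and 2.49 at day 8. The fall from day 2 to day 5 was then not called (-0.51, limma adjusted p = 0.0766). With normexp its rise was 1.57. AK003243 was brighter, at 2050, 3410 and 2772 in proliferation and 15385, 14445 and 9802 at day 2 (2.27 ± 0.24, limma adjusted p = 0.000123). AK020871 went from 109, 137 and 179 to 617, 484 and 495 (1.93 ± 0.18). These 4 were chosen from probes whose 2 groups did not overlap.

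The largest falls were of similar size. AK053042 fell by 2.92 ± 0.33 on the log2 scale (limma adjusted p = 0.000157), with signals of 229, 187 and 218 in proliferation and 29.9, 24 and 30.1 at day 2. It then stayed low, at 18.6 to 48.2 on the 6 later arrays. AK047805 went from 5408, 4809 and 2524 to 706, 599 and 884 (-2.49 ± 0.34), and AK037391 from 135, 185 and 126 to 21.4, 32.2 and 28.6 (-2.44 ± 0.29). With normexp AK053042 changed by -1.22 and AK037391 by -0.98, both still called. AK021102 had 45.8, 132 and 140 against 28.8, 8.62 and 10.5 (-2.78 ± 0.62, limma adjusted p = 0.00723). Its day 2 array on slide 1 was the highest of the 3, and the call did not hold with the slide block (-1.72, adjusted p = 0.152) or with normexp (-0.64, adjusted p = 0.0538), within 0.00466 to 0.152 over its alternatives.

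Several probes were well above background on none of the arrays of one side. Their change is given as a bound, set against the dimmest signal that was well above background on each array. The bound concerns the dim side of the main fit alone. It makes no allowance for spread between arrays, so blocked or normexp changes can be smaller than it. AK017368 had 8.95, 13.3 and 10.1 in proliferation and 116, 188 and 70.5 at day 2, at least 7.31-fold higher (limma adjusted p = 4.27e-05). AK016486 was at least 3.85-fold higher at day 2, with 53.1, 74.9 and 40.3, and 13.8 to 18.5 on later arrays. AK048948 was at least 3.08-fold higher, a call lost without day 2 array 1 (limma adjusted p = 0.0686, within 0.000877 to 0.0686 over its alternatives). In the other direction AK038116 was at least 8.66-fold lower at day 2, and the proliferation signals of 114, 215 and 21.8 were themselves far apart. The call was lost with normexp (-0.91, limma adjusted p = 0.0714, within 0.000182 to 0.0714). AK169827 was at least 3.18-fold lower at day 2 and again above background on all day 8 arrays; with normexp the change was -0.17 (adjusted p = 0.531, within 0.000365 to 0.531). AK035265, at least 3.6-fold lower, lost its call under normexp (limma adjusted p = 0.807), in the blocked fit (0.199) and when leaving out proliferation array 2 (0.0629) or day 2 array 2 (0.0553) or 3 (0.0625), within 0.00698 to 0.807. The fitted change of AK035265 was -0.07 with normexp and -1.01 in the blocked fit, both smaller than its bound. The fitted normexp changes of AK017368, AK016486 and AK048948 were 1.48, 1.08 and 0.95. In all, 13 called AK probes rose from and 7 fell to signals not well above background by day 2, with such a bound. Bounded calls were counted for AK probes alone. By detection, mRNA probes also came up by day 2 more often than they went down (0.324% and 0.0577%). AK038116 passed the filter through proliferation alone, the stage where it was high.

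Day 5 against proliferation compared myotube-forming cultures with their starting state. 1318 AK probes changed, 646 higher and 672 lower, 38.4% of those tested against 47.5% of all probes. Rises and falls of at least 2-fold numbered 365 and 411 among AK probes, 10.6% and 12% of those tested, against 12.4% and 13.3% of all probes. The median change of the AK probes was -0.06, beside -0.02 for all probes. Rises made up 49.0% of AK calls in this fit, beside 49.8% for all probes. They made up 67.1% with normexp (60.2% for all probes), 89% without non-uniform spots (88.5%) and 59.3% without day 5 array 3 (53.4%), and were the majority in 7 of 23 settings. Fitted with the slide block, 561 AK probes changed, 16.3% of those tested against 22.7% of all probes, and 59% of them were higher against 55.3%.

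Individual transcripts moved far beyond the spread of their replicates. AK010233 had signals of 977, 1001 and 1145 in proliferation and 1802, 1799 and 1553 at day 2. At day 5 it stood at 30439, 34319 and 37369, a rise of 5.03 ± 0.14 on the log2 scale (32.7-fold, limma adjusted p = 2.26e-09), and at day 8 it held at 30952 to 37584. The main rise of this transcript therefore fell between days 2 and 5. AK003800 rose from 58.2, 73.8 and 106 to 1856, 2120 and 2654 (4.83 ± 0.23), and AK137060 from 402, 314 and 334 to 7531, 8627 and 7922 (4.53 ± 0.17). AK004293 went from 929, 956 and 877 to 15024, 20982 and 14927 (4.19 ± 0.15) and kept climbing to 34772 to 40588 at day 8. These 4 were above background on all 12 arrays, and their calls held in each alternative run. With normexp the rise of AK003800 was 3.84.

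AK015549 gave the largest fall at day 5 among probes above background on both sides. Its signals were 3176, 4370 and 4942 in proliferation, 1798, 950 and 2010 at day 2 and 95.6, 91.5 and 106 at day 5, a change of -5.39 ± 0.27 (limma adjusted p = 7.71e-08). The day 8 signals of 76.2, 91.2 and 101 lay at the day 5 level. AK009242 went from 209, 349 and 250 to 22.8, 17.1 and 18.3 (-3.77 ± 0.25) and AK021352 from 173, 164 and 192 to 15.7, 15.1 and 23.3 (-3.32 ± 0.23). With normexp the changes of AK015549, AK009242 and AK021352 were -4.49, -1.46 and -1.25, all still called. AK083579 was variable in proliferation, at 407, 189 and 721, and stood at 34.7, 53.9 and 27.7 at day 5 (-3.36 ± 0.76, limma adjusted p = 0.00396). Its day 2 array on slide 1 read 265 while those on slide 2 read 30.2 and 31.8. With the slide as a block its change was -0.05 (adjusted p = 0.976, within 0.000173 to 0.976 over its alternatives), and with normexp -1.37.

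Other probes were not well above background on one side. AK017368, well above background on 0 of 3 proliferation arrays, reached 2056, 3023 and 2310 at day 5 and was at least 154-fold higher (limma adjusted p = 1.32e-08). AK009091, well above background on no array in proliferation or at day 2, read 110, 165 and 145 at day 5, at least 9.25-fold higher. AK050118 read 147, 133 and 111 and was at least 9.11-fold higher. With normexp their fitted changes were 5.24, 1.76 and 1.78. Among falls, AK038116 was at least 9.13-fold lower (-1 with normexp). AK018436 went from 59.5, 56.1 and 46.8 to values not well above background, at least 6.06-fold lower, with the call lost under normexp (-0.28, adjusted p = 0.174, within 1.41e-06 to 0.174). AK018539 held its level to day 2 (53.7, 36.4 and 42) and was at least 5.01-fold lower at day 5. Its normexp change of -0.38 (limma adjusted p = 0.0431, within 3.07e-06 to 0.0431) is far smaller than that bound. 42 called AK probes came up with such a bound at day 5 and 5 went down, with no such count for all probes.

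**Figure D3:**
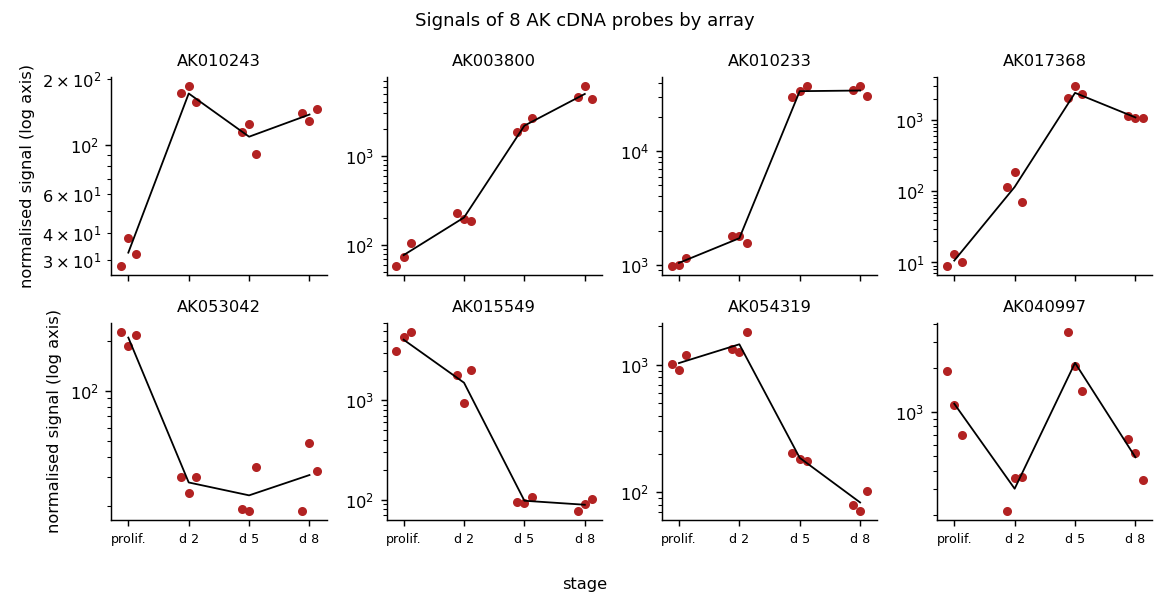
Normalised signal (log axis, scanner units scaled to one 75th percentile) of 8 AK cDNA probes at the 4 stages, with 1 point per array and lines through the means of the log2 signals. AK010243 had its highest signals at day 2, AK010233 rose between days 2 and 5, and AK003800 rose to day 8. AK015549 and AK054319 fell by day 5, and AK040997 was low at day 2 and high at day 5.

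Day 8 against proliferation covered the whole course. 1591 AK probes changed, 686 higher and 905 lower, 46.3% of those tested against 54.9% of all probes (25.3% higher and 29.6% lower). Falls of at least 2-fold numbered 597 and rises 389, beside 18% and 13.4% of all probes. The AK median was -0.19, beside -0.12 for all probes. Changes of at least 8-fold numbered 44 rises (1.28%) and 28 falls (0.816%), against 2.23% and 1.98% of all probes. Rises made up 43.1% of AK calls here and were the minority in all but 4 of 23 settings, among them 41.8% with the percentile taken only from probes detected on every array. The exceptions were quantile normalization (56.2%, beside 53.1% for all probes), normexp (71.4% and 60.6%), leaving out non-uniform spots (79.3% and 79.6%) and the slide block (65% and 56.5%). The slide block left 420 AK probes called, 12.2% of those tested against 17.4% of all probes, with an AK median of 0.09. No slide held arrays of both stages, so this blocked change runs through day 2 array 1 and day 5 array 3.

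AK003800 gave the largest rise measured on both sides, 6.01 ± 0.23 on the log2 scale (64.5-fold, limma adjusted p = 1.07e-08), with day 8 signals of 4624, 6073 and 4346 (4.89 with normexp). AK004293 rose by 5.33 ± 0.15 and AK010233 by 5.05 ± 0.14. AK162558 showed a late course, with 158, 153 and 102 in proliferation, 177, 211 and 156 at day 2, 1137, 1715 and 1317 at day 5 and 4295, 4690 and 4078 at day 8 (5.01 ± 0.21). AK010233 had reached its level by day 5 and differed by 0.02 ± 0.14 between days 5 and 8. AK017368 was at least 69.5-fold higher at day 8, AK050118 at least 29.1-fold and AK009091 at least 28.1-fold, with fitted normexp changes of 4.33, 3.03 and 2.95. With them, 61 called probes rose by day 8 from signals not well above background with a bound above 1.

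AK015549 led the falls (-5.53 ± 0.27, limma adjusted p = 4.93e-08), and AK009242 fell by 3.64 ± 0.25 on the log2 scale. With normexp these were -4.40 and -1.30. AK083336 went from 1329, 1626 and 1818 to 108, 48.5 and 102 (-4.28 ± 0.43). Its day 2 array on slide 1, at 1470, sat at the proliferation level while those on slide 2 read 546 and 525, and with the slide block the change was -2.03 (limma adjusted p = 0.0687, within 1.01e-06 to 0.0687), and with normexp -3.20. AK083579 stood at -4.13 ± 0.76 and at -0.39 with the block (limma adjusted p = 0.837, within 3.65e-05 to 0.837), and -1.35 with normexp. AK041981 was at least 11.6-fold lower (lost with the block, limma adjusted p = 0.143, within 1.25e-05 to 0.143; -0.87 with normexp). AK038116 was at least 8.7-fold lower (lost with the block, 0.118, and with normexp, 0.0962, at -0.78, within 1.47e-05 to 0.118). AK033974 was at least 8.03-fold lower (lost with the block, 0.388, and with normexp, 0.0976, at -0.69, within 7.85e-05 to 0.388). Its proliferation signals of 143, 182 and 16.1 did not sit together, and it passed the filter through that stage alone. 23 called AK probes went down with such a bound, and bounded calls in either direction were not counted for all probes.

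Day 5 against day 2 covered the step in which the muscle program rose most. 805 AK probes changed, 535 higher and 270 lower, 23.4% of those tested against 30.1% of all probes. Rises made up 15.6% of tested AK probes against 14.3% of all probes, and falls 7.86% against 15.7%. Changes of at least 2-fold numbered 260 rises and 141 falls, beside 6.99% and 7.91% of all probes. Thus 66.5% of the AK calls were rises, beside 45.2% for mRNA probes and 44.6% for UCSC known-gene probes. The share of rises among AK calls lay between 59.5% and 77.2% over this fit and 22 alternatives, and it was above that of all probes in each of the 23, by 14.5 to 21.4 percentage points. In the fit with the slide block 574 AK probes changed (16.7%, against 22.1% of all probes), 67.2% of them higher, and the AK median was 0.11 against -0.02 for all probes. The difference in split between AK and other probes is a description, with no test.

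The split is described next by accession number, with no test between blocks. Among probes with numbers from 2217 to 21411, 167 rose and 132 fell between days 2 and 5, so 55.9% of the calls were rises. Among numbers from 27946 to 54540 there were 182 rises and 67 falls (73.1%). The next block, 75622 to 90394, had 110 rises and 45 falls (71%), and numbers from 129357 to 219183 had 76 and 26 (74.5%). Restricted to probes above background on all 12 arrays, the shares were 58.5%, 72%, 70.2% and 73.6%. They were 57.1%, 74.7%, 67.9% and 77.9% with the slide as a block, and 56.9%, 69.8%, 66.3% and 73% with normexp.

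At day 2 against proliferation the same blocks had 47.1%, 36.3%, 35.3% and 40.6% rises among their calls. With normexp the shares were 74.5%, 70.8%, 74.4% and 72%. The share of probes tested was 43.9%, 41%, 47.3% and 52.1% from the lowest to the highest block, and the F test called 59.9%, 53.8%, 56.8% and 55% of those.

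**Figure D4:**
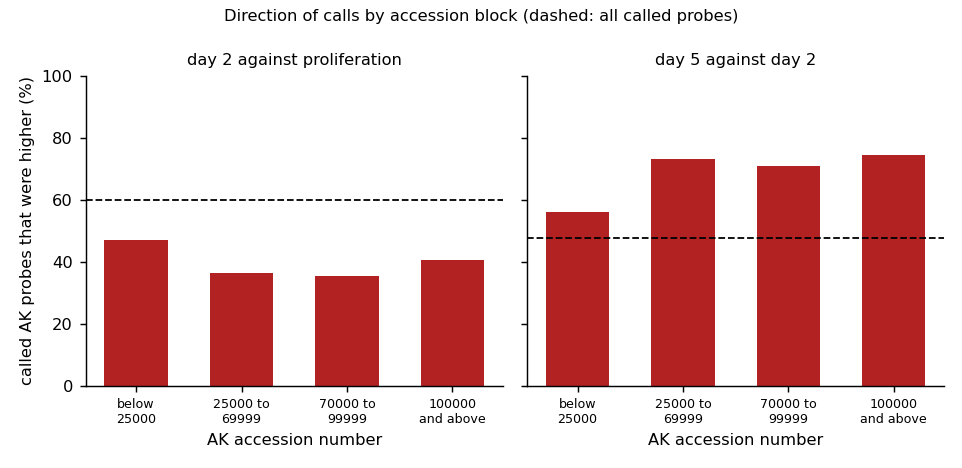
Share of called AK probes that were higher (%, bars) at day 2 against proliferation and at day 5 against day 2, in 4 blocks of accession numbers; the dashed line is the share among all called probes. At day 5 against day 2 the lowest block had 55.9% rises and the other 3 blocks 71% to 74.5%, against 47.7% for all called probes.

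Of the transcripts with the largest rises in this step, AK017368 had already risen by day 2, and AK010233 and AK143109 had risen by 0.72 and 1.01. AK017368 rose by 4.40 ± 0.30 on the log2 scale between days 2 and 5 (limma adjusted p = 1.95e-06; 4.44 within slide 2), AK010233 by 4.31 ± 0.14 (4.27 within slide 2) and AK143109 by 4.14 ± 0.21 (4.21 within slide 2). AK143109 read 33.5, 29.4 and 20.9 at day 2 and 449, 471 and 540 at day 5. AK015549 fell by 3.95 ± 0.27 (-3.88 within slide 2). AK054319 read 1323, 1261 and 1823 at day 2, 204, 181 and 175 at day 5 and 79.7, 70.8 and 102 at day 8, and fell by 2.96 ± 0.19 in this step (limma adjusted p = 1.02e-06). AK078071 went from 761, 756 and 942 to 123, 104 and 102 (-2.90 ± 0.19) and read 160 to 255 at day 8. With normexp the changes of AK017368, AK143109, AK015549 and AK078071 were 3.76, 2.45, -3.03 and -2.27.

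Day 8 against day 5 was the quietest step. 392 AK probes changed, 175 higher and 217 lower, 11.4% of those tested against 12.7% of all probes (5.88% higher and 6.84% lower). Changes of at least 2-fold numbered 62 rises and 133 falls, beside 1.74% and 3.05% of all probes. Rises made up 44.6% of the AK calls, beside 46.2% for all probes. They made up 56.6% with quantile normalization (57.1% for all probes), 64.7% with normexp (54.2%) and 16.2% without non-uniform spots (23.3%). This count depended on single arrays: it was 165 without day 5 array 1, 204 without day 5 array 2, 625 (21.3% higher) without day 5 array 3, and 193, 235 and 219 without day 8 arrays 1, 2 and 3. Without day 5 array 3, rises made up 33.1% of the calls among all probes, beside the 21.3% among AK probes. Day 5 array 3 was the only day 5 array on the slide of the day 8 arrays and had the lowest AK detection. Blocking on the slide, 131 AK probes changed (3.82%, against 3.21% of all probes), and 66 were called in both fits. Of the 131, 68.7% were higher, beside 59.2% of the calls among all probes. The AK median was -0.10, and 0.13 within slide 3.

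AK149390 gave the largest rise of this step, from 39.2, 43.8 and 50.9 at day 5 to 345, 276 and 304 at day 8 (2.79 ± 0.20, limma adjusted p = 9.54e-05; 2.59 within slide 3), and was well above background on 0 of 3 proliferation arrays. AK009873 rose by 2.23 ± 0.46 after lying low at day 2 and day 5 (21.5 to 46.1), a call lost with the slide block (limma adjusted p = 0.108, within 0.00351 to 0.108). AK047865 rose by 1.91 ± 0.52, from 69, 47.9 and 34.5 to 320, 195 and 97.3. Its call was lost with the slide block (limma adjusted p = 0.0943) and without filter (0.0871). Leaving out any single day 5 array gave 0.0655, 0.0907 and 0.0814, leaving out the first or second day 8 array 0.124 and 0.0953, and leaving out proliferation array 2 or the third day 2 array 0.0534 and 0.0529, within 0.0121 to 0.124. AK081596 fell from 239, 166 and 121 to 15.4, 45.2 and 25.8 (-2.69 ± 0.34, limma adjusted p = 0.00154; -2.21 within slide 3). AK089571 fell by 2.38 ± 0.37 on the log2 scale (lost with the block, limma adjusted p = 0.0827, within 0.00162 to 0.0827). With normexp AK149390 changed by 1.67, AK009873 by 1.18, AK047865 by 1.15 and AK081596 by -1.18.

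The timing of change was read from the 3 consecutive steps, which share the arrays of the stage between them. Of 3433 tested AK probes, 1941 had no called step. A single called step was the most frequent course: 283 fell by day 2, 274 rose between days 2 and 5, 161 rose by day 2, 151 fell between days 2 and 5, 120 fell after day 5 and 33 rose after day 5. 72 rose in both of the first steps and did not change after, and 44 fell in both and did not change after. 11 rose in all 3 steps and 2 fell in all 3. When a change of at least 2-fold was also required, 2626 had no called step, and the single-step counts were 187, 181, 71, 105, 98 and 19 in the same order. With the slide as a block they were 160, 287, 125, 142, 22 and 50. These single-step and repeated courses were counted for AK probes alone, so whether they differ from those of all probes was not tested.

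Among the 1949 AK probes called in the F test, the highest stage mean was in proliferation for 738 (37.9%), at day 2 for 336 (17.2%), at day 5 for 343 (17.6%) and at day 8 for 532 (27.3%). The lowest mean was at day 2 for 486 of them (24.9%), against 14.2% of called mRNA probes. Day 2 was the stage of the highest mean for 25.1% of called mRNA probes.

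**Figure D5:**
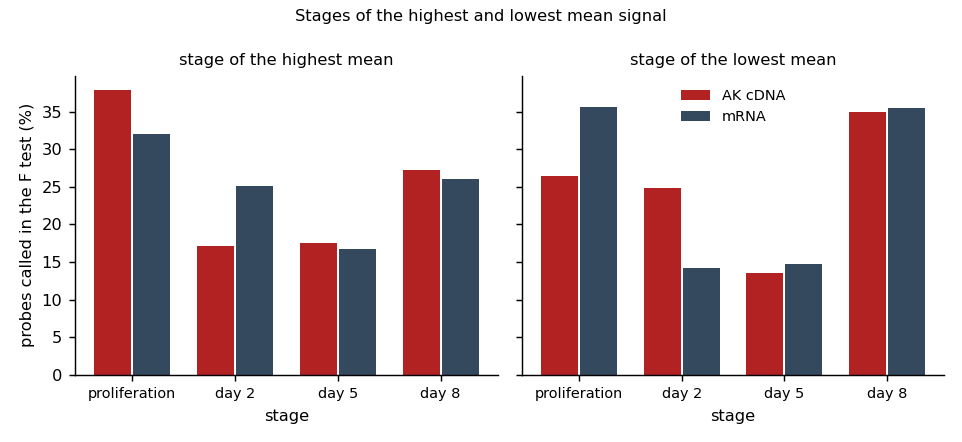
Stage at which probes called in the F test had their highest (left) and lowest (right) mean signal, as a share of 1949 AK cDNA and 11169 mRNA probes. AK probes had their lowest mean at day 2 in 24.9% of cases and mRNA probes in 14.2%.

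Courses that turned back were found in both directions. 112 AK probes (3.26%) fell by day 2 and rose again by day 5, and 38 (1.11%) rose and fell again, beside 2.12% and 2.97% of all probes. Around day 5, 42 (1.22%) rose into the stage and fell out of it, and 26 (0.757%) did the opposite, beside 1.32% and 1.11%. With the slide block the 4 counts were 30 (0.874%), 18 (0.524%), 11 (0.32%) and 7 (0.204%). The shares of all probes were then 0.562%, 1.15%, 0.361% and 0.248%. Both steps of a turn share the arrays of the stage between them. AK040997 turned at each step: 1899, 1115 and 702 in proliferation, 211, 357 and 362 at day 2, 3537, 2064 and 1392 at day 5 and 660, 527 and 344 at day 8. Its changes were -1.92 ± 0.43, 2.85 ± 0.43 and -2.14 ± 0.43 (limma adjusted p = 0.00729, 0.000472 and 0.0115), the last lost with the slide block (0.166, within 0.00453 to 0.166). AK082956 was well above background on no array in proliferation or at day 2, so its difference between them (21.3, 13.3 and 9.3 against 3.07, 2.07 and 1.65) gives no size of change. AK011567 read 63, 36.8 and 29.1, then 10.5, 17.3 and 10.4, then 47.7, 31.8 and 36.8 (-1.72 ± 0.38 into day 2). With normexp that change was -0.20 (limma adjusted p = 0.388, within 0.00339 to 0.388). Its rise out of day 2 was not called with the slide block (1.54, limma adjusted p = 0.0532).

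The 3 largest transient rises at day 2 came from dim probes that were well above background on all arrays at day 2 and on none in proliferation or at day 8. They passed the filter through day 2 alone, the stage where they were high, so their values are a description. AK005901 read 66.9, 24.4 and 19.5 at day 2 against 2.33 to 4.95 in proliferation, at least 2.24-fold higher. AK019027 was at least 1.44-fold higher, with 65 on the slide 1 array and 10.4 and 12.4 on the others. AK084162 was at least 2.05-fold higher. The fitted normexp changes of the 3 were 0.92, 0.87 and 0.84. The call of AK084162 was lost without proliferation array 1 or 2, without day 2 array 1 and with no filter. With the slide block its fall from day 2 to day 5 was not called (-0.67, limma adjusted p = 0.233). The blocked fit also put AK084162 at day 8 4.18 above proliferation on the log2 scale, against 0.36 without the block (limma adjusted p = 0.642). Its signals were 6.97, 5.11 and 8.48 in proliferation and 10.6, 8.31 and 7.22 at day 8, none well above background. The blocked difference therefore gives no size of change. With the slide block the falls of AK005901 and AK019027 from day 2 to day 5 kept their calls (-2.8 and -2.96, limma adjusted p = 0.00107 and 7.54e-05).

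At day 5, AK081596 and AK052375 were high for a single stage: the first read 37.4 to 40.5 at day 2 and 121 to 239 at day 5, and the second 21.1 to 22.9 and 42.6 to 118. The rise of AK081596 was 2.10 ± 0.34, and 1.12 with normexp. AK052375 rose by 1.49 ± 0.37 (with normexp 0.44, limma adjusted p = 0.105, within 0.00395 to 0.105). With the slide block the fall of AK052375 out of day 5 was not called (-1.57, limma adjusted p = 0.132). That of AK081596 kept its call (-2.21, limma adjusted p = 0.0438). AK020037 dipped at day 5, with 92.9, 63.9 and 87.2 at day 2, 31.7, 16.3 and 29.8 at day 5 and 59.1, 50.9 and 60.9 at day 8 (-1.69 ± 0.26 into day 5, limma adjusted p = 0.000493; -0.77 with normexp). With the slide block the rise of AK020037 out of day 5 was not called (0.93, limma adjusted p = 0.196). AK053547 fell by 1.60 ± 0.38 on the log2 scale into day 5 and rose by 1.64 ± 0.38 out of it. With normexp the first change was -0.43 (limma adjusted p = 0.139, within 0.00565 to 0.139). The second was not called with the slide block (1.63, limma adjusted p = 0.13). AK050904 fell by 1.63 ± 0.41 on the log2 scale and rose by 1.64 ± 0.41, the fall being lost with normexp (-0.25, limma adjusted p = 0.272) and with the slide block (0.0896), within 0.000859 to 0.272.

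AK probes were dimmer than mRNA probes. Signal is a property of the probe as well as of its RNA and is used here only to group probes. When all tested probes were cut into 4 equal groups by mean signal, the dimmest group held 44% of tested AK probes and 18.5% of tested mRNA probes. From the dimmest to the brightest group the F test called 48%, 60.2%, 70.5% and 63.4% of AK probes, beside 63%, 71.4%, 71.4% and 67.4% of mRNA probes. The median SD of log2 signals within a stage fell from 0.512 to 0.171 for AK probes and from 0.465 to 0.177 for mRNA probes. In the dimmest group, rises between days 2 and 5 were called for 11.1% of AK probes and 11.8% of mRNA probes, and falls for 6.68% and 17.8%. The second group gave 17.2% and 18.3% for rises and 8.33% and 19.5% for falls. In the third group, rises were called for 22% of AK probes and 17% of mRNA probes, and falls for 10.7% and 17.5%. The brightest group gave 20.9% and 11.4% for rises and 7.19% and 16.5% for falls.

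At day 2 against proliferation, AK falls outnumbered AK rises in all signal groups but the brightest. AK rises, from the dimmest group up, came to 5.23%, 10.4%, 14.3% and 23.8%, beside 13.3%, 19.3%, 21.1% and 26% for mRNA probes. AK falls came to 10.3%, 17.1%, 21% and 13.4%, beside 8.56%, 15.6%, 16% and 8.16%. In each group AK probes thus had fewer rises and more falls than mRNA probes. AK004226 was printed as 10 spots, whose log2 signals had a median SD of 0.237 within an array, next to an SD of 0.212 between arrays of a stage. The other AK probe with 10 spots, AK053689, was not tested and had 0.352 within an array and 0.574 between arrays.

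Some AK transcripts kept a steady signal throughout. AK088982 read 8951 to 11661 on the 12 arrays, and its 4 stage means spanned 0.06 on the log2 scale. Without non-uniform spots its day 8 change was 1.19 (limma adjusted p = 0.0418, within 0.0418 to 0.991). AK020648 (632 to 896) spanned 0.07 and AK160455 (148 to 270) spanned 0.09. They were chosen for this small span. The 5 probes with the highest mean signal were AK012450, AK016049, AK003483, AK003502 and AK003869. AK012450 read 510425, 605799 and 546227 in proliferation, 762635, 771551 and 715753 at day 2 and 468643, 396400 and 558317 at day 8. AK003502 rose by 0.52 ± 0.18 by day 8 (limma adjusted p = 0.028), a call lost with the slide block (0.49), with no filter (0.061) and without non-uniform spots at the percentile of all spots (0.12). Leaving out proliferation array 1 or 3 also ended it (0.0569 and 0.108), as did leaving out the day 8 arrays numbered 1 or 3 (0.068 and 0.103), within 0.00689 to 0.49. The other 4 had no call at day 8, with changes between -0.39 and 0.12. AK003869 passed without day 8 array 3 (limma adjusted p = 0.0325), with the percentile over detected probes (0.0366) and with a variance trend and robust fit (0.0422), within 0.0325 to 0.45, and AK016049 without proliferation array 1 (0.0199), within 0.0199 to 0.854.

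Profiles over the 12 arrays were also set against that of Myog. Among the 2489 AK probes above background on all arrays, the closest was AK160514 (Pearson r = 0.981), with 3036, 5298 and 3933 in proliferation, 9430, 10876 and 8205 at day 2, 20673, 28538 and 22355 at day 5 and 20332, 18772 and 19074 at day 8. AK145188 and AK047204 each had r = 0.979. The day 8 rise of AK145188 was 1.40 ± 0.14, and 1.16 with the slide block (limma adjusted p = 0.055, within 2e-06 to 0.055). The most opposed were AK078781 (r = -0.989), AK015539 (r = -0.984) and AK138072 (r = -0.982). By day 8 AK138072 had changed by -2.27 ± 0.19, and by -1.27 with normexp. AK015539 read 4659 to 4961 in proliferation, 2639 to 3206 at day 2, 999 to 1107 at day 5 and 979 to 1340 at day 8. These correlations over 12 arrays of 4 stages are descriptions; the points share stages and slides, and any 2 probes that change in the same stages will correlate.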

How the data were processed

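Each of the 12 deposited files is the scanner output of 1 array, which per the submitters' processing notes the authors made with Agilent Feature Extraction 10.5.1.1. The processed green signal is an intensity after that software's background treatment, per the file headers, with no normalization between arrays recorded. Here 1417 control and 200 negative-probe spots of 39448 were set aside, spots of a probe were averaged on the log2 scale without population outliers, and each array's 75th percentile was subtracted. Non-uniform spots were kept, and 0 spots were saturated. Probes were fitted in limma (version 3.58.1, R 4.3.3) with 4 stage means over 12 arrays. This fit, tested on simulated data, called changes at an adjusted p under 0.05. Precision is limited by 3 arrays per stage. The planned normexp alternative used the median spot signal in place of the mean. A gene symbol was given to mRNA probes by RefSeq's GRCm38.p6 list. The members, lists and tests were chosen with earlier results of these data known. Named AK probes were the largest changes in each direction (4 against proliferation, 3 otherwise) called, above background on all 6 arrays and without overlap; the 3 largest bounded changes; the 3 largest in each transient class; the 5 brightest; the 3 steadiest of the bright; and the 3 most and least correlated with Myog. Grouping by clone description and comparing probes of an accession were planned and not run, since each accession had 1 probe and no description was used.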

Additional observations from a re-analysis of the deposited data

How the results depend on the processing

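Alternatives were another background correction, scaling, filter, variance model, block or spot filter, and each array left out; 1 of them, leaving out non-uniform spots with the percentile from all spots, was chosen after the data were examined. Counts of called AK probes that moved by over 1.5 times were as follows. With the slide as a block they were 426 at day 2, 561 at day 5 and 420 at day 8 against proliferation, 131 at day 8 against day 5 and 900 in the F test. With normexp they were 488 at day 5 against day 2 and 207 at day 8 against day 5, and with no filter 196 in the latter. Without non-uniform spots they were 1013 at day 8 against proliferation, 416 at day 5 against day 2 and 117 at day 8 against day 5. With the percentile from all spots they were 499 at day 2 against proliferation and 256 at day 8 against day 5. The cause was not tested. Leaving out 1 array gave 575 to 929 at day 2, 1121 to 1322 at day 5 and 1353 to 1731 at day 8 against proliferation, 630 to 851 at day 5 against day 2, 165 to 625 at day 8 against day 5 and 1706 to 2126 in the F test.

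Of 73 called changes of named AK probes, 49 kept their direction and call in every alternative run. Of 7 uncalled ones, 4 stayed uncalled throughout, and all 4 changed sign in some setting. The other 27 of the 80 crossed the threshold somewhere, most often with the slide block (16) or normexp (12). The fitted difference of AK082956 into day 2, between stages where it was not well above background, turned to 0.11 with normexp. Same-numbered arrays of different stages had correlated deviations in 5 of 18 pairs (r over 0.1; range -0.155 to 0.243), so the numbers were not taken to pair the samples. The replicate block gave 867, 1340, 1611, 834 and 359 called AK probes in the 5 comparisons and 2005 in the F test. With it no count moved by over 1.5 times.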
